A study of Homo sapiens with 36 samples.

Results

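The genes for 6 secreted growth factors that bind the epidermal growth factor receptor (EGFR) were followed here: AREG (amphiregulin), EREG (epiregulin), TGFA (transforming growth factor alpha), HBEGF (heparin-binding EGF-like growth factor), BTC (betacellulin) and EGF. They were chosen by name as the ligand family of the receptor that the aptamer was made against, and all 6 were found among the 66366 named genes of the files. The study sequenced poly-A RNA of 4 lines of human non-small cell lung cancer, and 3 treatments in triplicate gave 36 libraries in 12 groups. A549 is wild type for EGFR per the labels. The EGFR gene of H3255 is labelled L858R, that of H1975 L858R/T790M and that of H820 Ex19del/T790M, a deletion in exon 19. MinE07, given at 3 µM, is an aptamer against EGFR, that is, an RNA whose fold lets it bind the protein. C36, in an extended version and at the same dose, was the control aptamer, and the vehicle was buffered saline with magnesium. Treatment lasted 24 h in medium with 1% serum, which was RPMI for H3255, H1975 and H820 and DMEM for A549, so medium and A549 cannot be told apart. Each genotype is represented by 1 cell line, so genotype and the rest of a line's background cannot be told apart either. The series record describes the 3 libraries of a group as biologically independent experiments, and the p-values measure the spread between them.

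All of these ligands are made as membrane-anchored precursors whose outer part is cut off by metalloproteases such as ADAM17 and ADAM10. The released part binds EGFR on the same or a neighbouring cell, and HBEGF, BTC and EREG also bind ERBB4. Active EGFR signals through RAS and the MAPK kinases, and transcription of several ligand genes is itself raised by that pathway, so a ligand gene can be both an input and an output of the receptor. In lung epithelium and lung adenocarcinoma, AREG, EREG and TGFA are the family members most often studied as autocrine growth factors. Protein, shedding and receptor phosphorylation were not measured in these files, so every value below is a transcript level.

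AREG, EREG and BTC lie in one cluster on chromosome 4 (GENCODE release 29 on GRCh38). EREG spans chr4:74365143-74388751 and AREG spans chr4:74445134-74455009, both on the plus strand, with 56.4 kb between them. BTC, on the minus strand at chr4:74744759-74794686, lies 289.8 kb beyond AREG. EGF is on another part of the chromosome at chr4:109912884-110012266, TGFA is at chr2:70447280-70554193 and HBEGF at chr5:140332843-140346631. The 250 bases before the RefSeq start site (GRCh38.p14) are shown for the 3 clustered members. AREG and EREG fell together under MinE07 in H3255 and H1975, while BTC, their neighbour, did not pass the test.
AREG, chr4:74444886-74445135, plus strand: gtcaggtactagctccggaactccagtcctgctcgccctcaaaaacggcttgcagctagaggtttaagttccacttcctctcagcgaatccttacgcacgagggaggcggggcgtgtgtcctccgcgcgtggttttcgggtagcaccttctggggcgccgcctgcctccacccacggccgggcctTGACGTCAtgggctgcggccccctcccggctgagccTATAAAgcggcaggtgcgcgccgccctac
EREG, chr4:74364895-74365144, plus strand: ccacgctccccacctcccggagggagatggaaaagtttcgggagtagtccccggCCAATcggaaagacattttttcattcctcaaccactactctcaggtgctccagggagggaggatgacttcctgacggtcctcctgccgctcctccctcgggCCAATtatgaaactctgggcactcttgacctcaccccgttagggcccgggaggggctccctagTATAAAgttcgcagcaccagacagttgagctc
BTC, chr4:74794524-74794773, minus strand: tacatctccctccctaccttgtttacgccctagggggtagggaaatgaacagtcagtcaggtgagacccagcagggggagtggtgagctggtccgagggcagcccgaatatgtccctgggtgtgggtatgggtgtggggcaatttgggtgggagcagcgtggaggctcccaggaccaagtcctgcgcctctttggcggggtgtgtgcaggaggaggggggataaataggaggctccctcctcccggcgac
Capitals mark exact matches, on either strand, to 4 motifs: the cyclic AMP response element TGACGTCA, the AP-1 motif TGANTCA, the TATA box letters TATAAA and CCAAT. A match to TGANTCA cannot overlap one to TGACGTCA. The AREG window holds the response element 65 bases before the start and TATAAA 29 bases before it. The EREG window holds TATAAA 32 bases before the start and CCAAT at 196 and 95 bases before it. The BTC, HBEGF and TGFA windows hold none of the 4, and the EGF window holds the AP-1 motif 17 bases before its start and CCAAT. Without any of these matches, HBEGF was called lower under MinE07 in H3255 and H1975, and TGFA in H1975. EPGN, a further ligand gene of the cluster that also fell in H3255, holds TATAAA 29 bases and CCAAT 63 bases before its start. Of all 35116 RefSeq promoter windows of that length, 1.65% hold TGACGTCA, 6.57% TGANTCA, 10.7% TATAAA and 32.0% CCAAT. A match is a description of letters and not a measured binding site.

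Values are FPKM, fragments scaled by transcript length and by the mapped fragments of the library, which allow levels of different genes to be set side by side. Depth in reads is unknown, and relative depth, computed from the steps between low values, ran from 0.59 to 1.385 of the median library. All 6 epithelial keratin and adhesion markers averaged at least 1 FPKM in every line. Of the alveolar markers NKX2-1, NAPSA and SFTPB, 3 did so in H3255, 1 (NKX2-1) in H1975 and H820, and 0 in A549. Of the blood, endothelial and fibroblast markers, CD68 in every line and COL1A1 in H3255 and H1975 reached that level. In H820, MinE07 replicates 1 and 2 list 4 of 4 abundant mitochondrial genes at 0, and the results for the ligand genes that use these libraries are given with and without them. Without them MinE07 has 1 library in H820, which is then assumed to vary like the other groups.

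Under vehicle the lines differed in which ligand was abundant. AREG led in A549, where the 3 vehicle libraries held 42.0, 33.3 and 37.6 FPKM, and the mean was 12.8 times that of H820, the lowest line. Vehicle means for AREG were 37.6 ± 4.37 FPKM (SD, n = 3) in A549, 9.82 ± 0.817 in H3255, 8.24 ± 0.514 in H1975 and 2.94 ± 0.169 in H820. EREG had a different order. Its vehicle libraries held 55.3, 53.8 and 55.4 FPKM in H820, 34.0, 27.6 and 30.0 in A549, 8.76, 10.0 and 9.71 in H1975, and 1.71, 1.59 and 1.76 in H3255. The highest and lowest lines differed 32.5-fold for EREG, the widest range of the 6 genes.

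TGFA was highest in H1975, with a vehicle mean of 12.5 ± 0.502 FPKM (n = 3), against 4.09 ± 0.0239 in H3255, 1.02 ± 0.0648 in A549 and 0.857 ± 0.071 in H820. HBEGF spanned the narrowest range, 4.09-fold, from 5.06 ± 0.321 FPKM in H820 and 3.50 ± 0.159 in H1975 to 1.33 ± 0.258 in H3255 and 1.24 ± 0.185 in A549. BTC was highest in H3255 at 9.23 ± 0.379 FPKM, followed by H820 at 6.001 ± 0.397, A549 at 2.00 ± 0.161 and H1975 at 1.10 ± 0.036. EGF itself was among the lowest members in every line, together with HBEGF in H3255 and TGFA in H820. Its vehicle means were 1.32 ± 0.0765 FPKM in H3255, 1.16 ± 0.0941 in H820, 0.102 ± 0.0245 in H1975 and 0.0635 ± 0.0104 in A549.

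**Figure D1:**
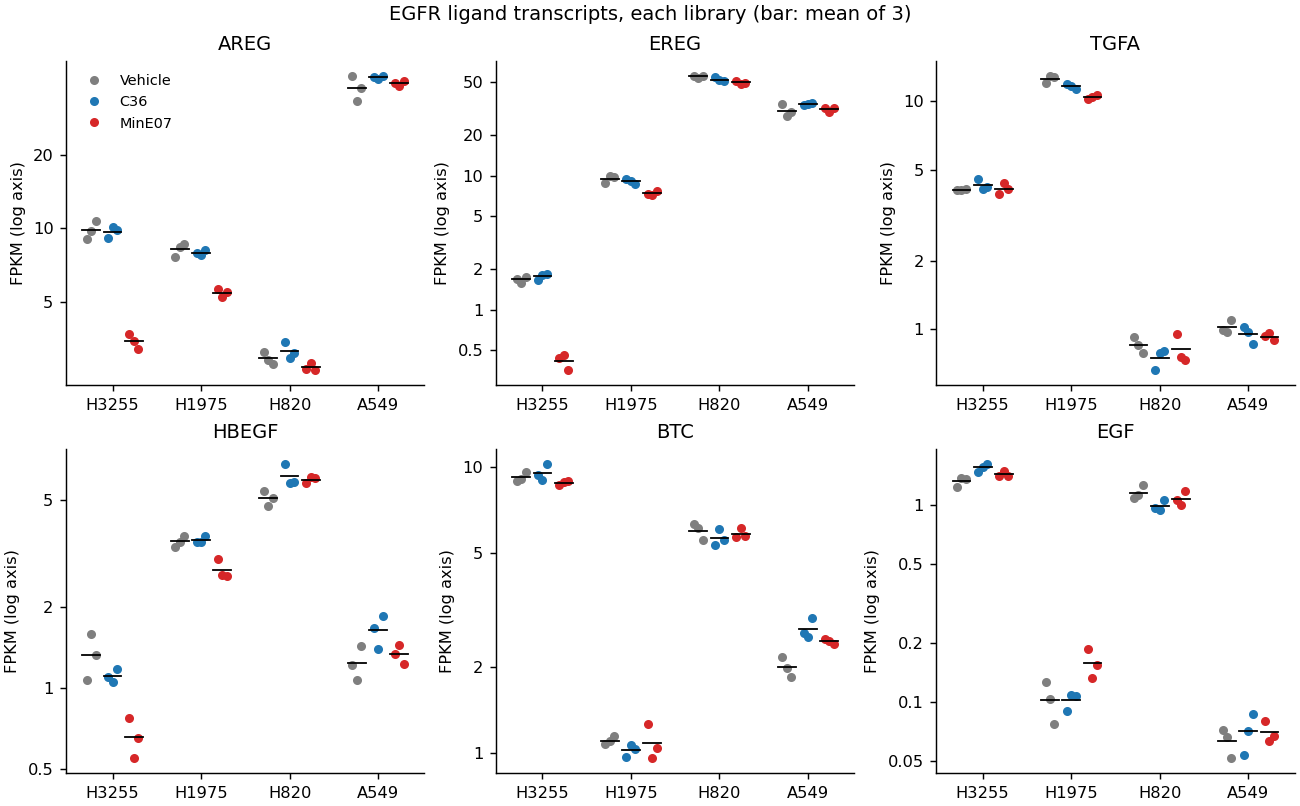
FPKM (log axis, a different range in each panel) of the 6 EGFR ligand genes in each of the 36 libraries, by line and treatment; points are libraries and the bar is the mean of 3. The MinE07 points of AREG and EREG sit below both control groups in H3255 and H1975, and the order of the lines differs from gene to gene.

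The vehicle levels were tested in limma over all 36 libraries, where 14572 genes with a mean of at least 1 FPKM were tested and a gene was called at an adjusted p under 0.05. EGF missed that mean. Of the other 5 members, 5 were called between H3255 and H1975, where 86.1% of all genes tested were called, and 5 between H3255 and H820 (86.3%). The counts were 4 between H3255 and A549 (87.1%), and 5 each between H1975 and H820 (83.7%), H1975 and A549 (84.6%) and H820 and A549 (85.2%). The members' counts are therefore near the background, since most genes differed between lines. Neighbours in the orders above were all called except HBEGF in H3255 and A549, which differed by 0.07 on the log2(FPKM + 0.5) scale (95% interval -0.12 to 0.25, limma adjusted p = 0.477). AREG in H3255 and H1975 differed by 0.24 (limma adjusted p = 0.00126). TGFA in H820 and A549 differed by -0.17 (limma adjusted p = 0.00872), a call lost without vehicle replicate 3 of H820 (0.0607) or of A549 (0.0563). Rescaling the libraries by medians of ratios moved the median of all genes by 0.15, 0.15 and 0.19 log2 in the contrasts of H1975 with H3255, H820 and A549.

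Summed over the 6 genes, ligand transcript under vehicle came to 72.5 ± 7.76 FPKM in A549, 70.9 ± 1.34 in H820, 34.98 ± 1.77 in H1975 and 27.5 ± 1.4 in H3255 (SD, n = 3). The makeup of that sum differed by line. In A549, AREG and EREG together made 94.0% of it, and in H820 EREG alone made 77.4%. In H1975, TGFA made 35.9%, EREG 27.1% and AREG 23.6%. H3255 was the line in which BTC was a leading ligand, with 33.6% of the sum beside 35.7% for AREG. H3255, the line with the smallest ligand sum, held the most transcript of the receptor. EGFR under vehicle was 418.8 ± 3.34 FPKM in H3255, 26.1 ± 1.6 in H1975, 19.9 ± 0.428 in A549 and 7.54 ± 0.141 in H820 (n = 3).

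**Figure D2:**
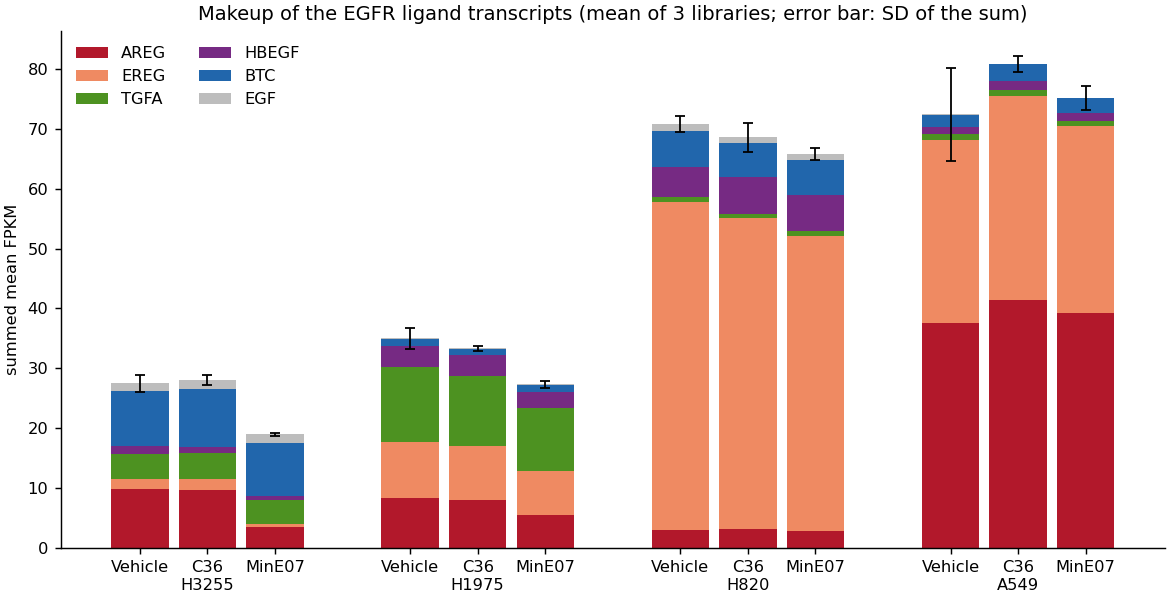
Summed mean FPKM of the 6 EGFR ligand genes by line and treatment (n = 3 libraries per bar), stacked by gene, with the SD of the sum as error bar. The H3255 bar falls from 28.0 under C36 to 18.9 under MinE07, mostly in its AREG segment, while the A549 and H820 bars are tallest under every treatment.

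In H3255, AREG, EREG and HBEGF were lower under MinE07 than under either control, and TGFA, BTC and EGF were not called. AREG libraries held 3.69, 3.45 and 3.22 FPKM under MinE07, 9.17, 10.1 and 9.81 under C36, and 9.05, 9.73 and 10.7 under vehicle. The 3 MinE07 libraries lie well under all 6 controls, and the controls overlap each other. Groups that do not overlap were common, at 49.9% of the genes tested against C36 and 49.1% against vehicle. The AREG mean under MinE07 was 0.356 of that under C36, a log2 change of -1.37 (SE 0.064, limma adjusted p = 2.69e-07), and ranked 37 of the 13429 genes tested by size of change. EREG libraries held 0.437, 0.460 and 0.356 FPKM under MinE07, 1.66, 1.82 and 1.86 under C36, and 1.71, 1.59 and 1.76 under vehicle. Every MinE07 library lies far below the lowest control, and the mean was 0.235 of that under C36. The fitted EREG change was -1.31 (SE 0.067, limma adjusted p = 4.28e-07), which understates the fall because 0.5 FPKM is added before the log. Fewer cells of a kind and less RNA per cell cannot be told apart in these bulk samples, and cell numbers at harvest are not given.

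HBEGF in H3255 held 0.773, 0.549 and 0.651 FPKM under MinE07, 1.10, 1.05 and 1.18 under C36, and 1.07, 1.59 and 1.32 under vehicle. All MinE07 libraries were below all controls, and the vehicle libraries were the more spread. Its log2 change from C36 was -0.48 (SE 0.105, limma adjusted p = 0.00503), with a mean 0.593 of the C36 mean. EREG and HBEGF passed the mean of 1 FPKM in this line through their C36 and vehicle libraries, and all their MinE07 libraries were below it. Of the 6 members 3 were called lower, where 20% of all genes tested were called lower and 36.7% in either direction. Marker sums moved with MinE07 in this line as well. The 6 epithelial markers summed to 1900 to 1950 FPKM under MinE07, 2060 to 2100 under C36 and 2180 to 2250 under vehicle, and the 3 alveolar markers to 258 to 277, 228 to 235 and 232 to 239. Their part in the ligand results was not tested.

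BTC in H3255 held 8.65, 8.87 and 8.98 FPKM under MinE07, 9.43, 9.04 and 10.3 under C36, and 8.96, 9.08 and 9.67 under vehicle. The MinE07 libraries were all below C36 but overlapped vehicle, and the log2 change from C36 was -0.11 (95% interval -0.22 to -0.002, limma adjusted p = 0.105). TGFA spread over 3.90 to 4.38 FPKM under MinE07 and 4.10 to 4.55 under C36, with a change of -0.05 (95% interval -0.16 to 0.06, limma adjusted p = 0.491). EGF spread over 1.40 to 1.49 FPKM under MinE07 and 1.47 to 1.62 under C36, with a change of -0.09 (95% interval -0.21 to 0.04, limma adjusted p = 0.268). These intervals hold no fall as large as that of AREG, EREG or HBEGF.

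Against vehicle, which shares the MinE07 libraries with the comparison above, the same 3 members were called lower in H3255, where 17.2% of all genes were lower and 38.6% were called. The log2 changes were -1.38 for AREG (limma adjusted p = 2.42e-07), -1.26 for EREG (5.61e-07) and -0.65 for HBEGF (0.000759). C36 against vehicle called 0 of the 6 in limma, where 0.305% of all genes were called, and 1 member, EGF, had an unadjusted p under 0.05. EGF was higher in all C36 libraries, as 24.4% of all genes did not overlap, by 0.17 (95% interval 0.05 to 0.30, limma adjusted p = 0.189).

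As a result of these changes the H3255 ligand sum was 18.9 ± 0.244 FPKM under MinE07 and 28.0 ± 0.823 under C36, a ratio of 0.676. The sum fell by 9.08 FPKM and AREG alone fell by 6.24 FPKM. AREG and EREG together made 20.5% of the sum under MinE07 and 41.0% under C36. BTC, which was not called, made 46.7% of the smaller sum under MinE07. Under C36 it made 34.2%, near the 34.6% of AREG. The ratio of AREG to EREG was 8.43, 7.50 and 9.05 in the MinE07 libraries, above the range of 5.29 to 6.11 in the 6 control libraries, because EREG fell by the larger factor.

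In H1975, 4 members were lower under MinE07, and the changes were smaller than in H3255 for AREG and EREG. AREG libraries held 5.64, 5.23 and 5.52 FPKM under MinE07, 7.94, 7.76 and 8.18 under C36, and 7.67, 8.40 and 8.66 under vehicle. MinE07 libraries sat below every control without overlap, as 40.3% of all genes did against C36 and 38.4% against vehicle in either direction. The AREG mean was 0.686 of the C36 mean, a log2 change of -0.51 (SE 0.049, limma adjusted p = 2e-04). EREG libraries held 7.32, 7.23 and 7.72 FPKM under MinE07, 9.46, 9.10 and 8.72 under C36, and 8.76, 10.0 and 9.71 under vehicle. Again no library overlapped, and the EREG change from C36 was -0.28 (SE 0.052, limma adjusted p = 0.00587). HBEGF libraries held 3.02, 2.62 and 2.61 FPKM under MinE07, 3.49, 3.47 and 3.67 under C36, and 3.35, 3.50 and 3.67 under vehicle. The HBEGF change was -0.32 (SE 0.058, limma adjusted p = 0.00515), with replicate 1 of MinE07 nearest to the controls.

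TGFA, the most abundant ligand of H1975, held 10.2, 10.5 and 10.7 FPKM under MinE07, 11.8, 11.6 and 11.3 under C36, and 11.96, 12.9 and 12.7 under vehicle. The 3 treatments form separate steps, MinE07 below C36 and C36 below vehicle, a pair of groups in which 20.5% of all genes did not overlap. TGFA changed by -0.15 from C36 (SE 0.037, limma adjusted p = 0.0218) and by -0.25 from vehicle (0.00157), while C36 against vehicle was not called at -0.11 (95% interval -0.19 to -0.02, limma adjusted p = 0.236). The TGFA call against C36 did not hold when replicate 1 (adjusted p = 0.0785) or 2 (0.0682) of C36 or replicate 1 (0.0713) or 2 (0.0507) of MinE07 was dropped. It was also lost with no filter on low values (0.0719) and in 1 fit of all 36 libraries (0.0654). The call against vehicle was kept in each of the 18 alternatives.

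BTC did not follow in H1975: it held 1.26, 0.957 and 1.04 FPKM under MinE07 and 0.969, 1.07 and 1.03 under C36, a change of 0.05 (95% interval -0.12 to 0.22, limma adjusted p = 0.667). EGF was under the 1 FPKM filter, with 0.185, 0.133 and 0.154 FPKM under MinE07 and 0.0902, 0.109 and 0.107 under C36. It was higher in all MinE07 libraries, and without the filter its change was 0.13 (limma adjusted p = 0.23). Of the 5 members tested 4 were called lower in H1975, where 11.1% of all 14183 genes tested were lower and 19.9% were called in either direction. Against vehicle the same 4 were lower, where 12.9% of genes were lower and 23.7% were called, with AREG at -0.55 (limma adjusted p = 0.000156), EREG at -0.33 (0.00204) and HBEGF at -0.30 (0.00551). C36 against vehicle called 0 of the 5 tested in limma, where 0.233% of all genes were called, and 1 of them, TGFA, had an unadjusted p under 0.05. In H1975 the 3 alveolar markers, led by NKX2-1, summed to 22.4 to 23.5 FPKM under MinE07, 17.0 to 18.7 under C36 and 19.1 to 21.0 under vehicle. The 2 fibroblast markers, led by COL1A1, summed to 6.43 to 6.5, 5.05 to 5.89 and 4.92 to 5.4. The part of these in the ligand results was not tested. The H1975 ligand sum was 27.3 ± 0.601 FPKM under MinE07, 33.3 ± 0.403 under C36 and 34.98 ± 1.77 under vehicle.

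**Figure D3:**
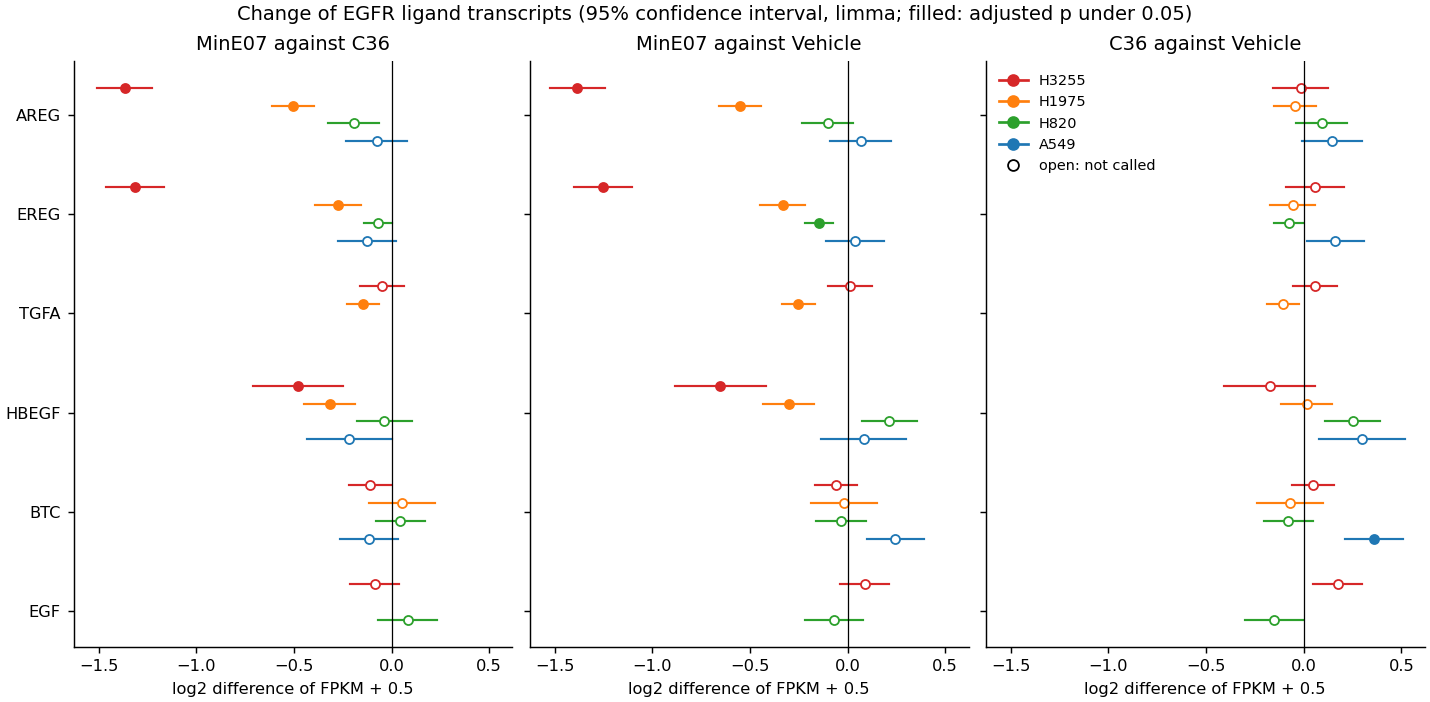
Change of each ligand gene on the log2(FPKM + 0.5) scale with its 95% interval, by line, for MinE07 against C36, MinE07 against vehicle and C36 against vehicle; filled points passed limma's adjusted p of 0.05 and open points did not, and members under a mean of 1 FPKM in a line have no point. AREG and EREG of H3255 stand farthest to the left in both MinE07 panels, near -1.3, and most other intervals lie within 0.5 of 0.

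In H820, the line with the most EREG, no member was called between MinE07 and C36, where 0.0364% of all 13753 genes were called in limma; 1 of the 5 members tested, AREG, had an unadjusted p under 0.05. AREG held 2.66, 2.80 and 2.63 FPKM under MinE07, 3.44, 2.95 and 3.10 under C36, and 3.13, 2.89 and 2.80 under vehicle. The MinE07 libraries were all below C36 but met the vehicle range, and the change from C36 was -0.19 (95% interval -0.32 to -0.07, limma adjusted p = 0.335). Groups without overlap made up 17.1% of all genes in this comparison. EREG held 50.9, 48.2 and 49.3 FPKM under MinE07, 54.2, 51.3 and 50.4 under C36, and 55.3, 53.8 and 55.4 under vehicle. MinE07 overlapped C36, with a change of -0.07 (95% interval -0.14 to 0.002, limma adjusted p = 0.51), and lay below all vehicle libraries, where 23.6% of all genes did not overlap.

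EREG was the 1 member called in H820 against vehicle, at -0.15 (SE 0.033, limma adjusted p = 0.0424), where 3.02% of all genes were called and 1.03% were called lower. That call was lost in 12 of 19 alternatives, among them leaving out MinE07 replicate 2 (adjusted p = 0.139) or 3 (0.122), vehicle replicate 1 (0.124), 2 (0.0849) or 3 (0.105), or C36 replicate 2 (0.0637) or 3 (0.0501). Without both MinE07 libraries that list mitochondrial genes at 0, the change was -0.15 with an adjusted p of 0.176. HBEGF held 5.75, 6.06 and 6.01 FPKM under MinE07, 6.79, 5.76 and 5.82 under C36, and 5.37, 4.73 and 5.07 under vehicle. Both aptamers lay above all vehicle libraries and overlapped each other. Between C36 and vehicle 24.6% of all genes did not overlap. HBEGF differed from vehicle by 0.21 under MinE07 (95% interval 0.07 to 0.36, limma adjusted p = 0.106) and by 0.25 under C36 (0.11 to 0.39, adjusted p = 0.0681), neither of which passed the test. The 3 alveolar markers also separated aptamers from vehicle, with sums of 28.9 to 31.7 FPKM over the aptamer libraries and 34.8 to 36.7 under vehicle, and the 6 epithelial markers summed to 1500 to 1520 under MinE07 and 1450 to 1490 in the controls. Their part in the ligand values was not tested. C36 against vehicle called 0 of the 5 members tested in H820, where 2.85% of all genes were called, and 3 of them had an unadjusted p under 0.05.

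BTC in H820 ranged from 5.71 to 6.11 FPKM under MinE07, 5.34 to 6.08 under C36 and 5.56 to 6.33 under vehicle, and EGF from 1.00 to 1.17, 0.938 to 1.06 and 1.08 to 1.26. Both overlapped between MinE07 and C36, with changes of 0.05 (limma adjusted p = 0.82) and 0.08 (adjusted p = 0.716). TGFA was under the filter, between 0.664 and 0.957 FPKM over the 9 libraries. Without the pair of MinE07 libraries that list mitochondrial genes at 0, limma called 0 members between MinE07 and C36, with AREG at -0.23 (adjusted p = 0.469), EREG at -0.075 (0.623), HBEGF at -0.02 (0.954), BTC at 0.02 (0.956) and EGF at 0.17 (0.607). Against vehicle, HBEGF was then at 0.23 (adjusted p = 0.314).

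In A549, the line with the most AREG, MinE07 against C36 called 0 of the 4 members tested, where 0% of all 13425 genes were called in limma and 1455 of them had an unadjusted p under 0.05, none of them a member. AREG held 39.4, 38.2 and 40.1 FPKM under MinE07, 41.5, 40.9 and 41.9 under C36, and 42.0, 33.3 and 37.6 under vehicle. MinE07 libraries were all below C36, but the vehicle libraries covered both, and the change from C36 was -0.08 (95% interval -0.23 to 0.08, limma adjusted p = 0.707). EREG held 31.8, 29.8 and 32.1 FPKM under MinE07, 33.7, 33.9 and 34.7 under C36, and 34.0, 27.6 and 30.0 under vehicle. Here too MinE07 was below C36, and the vehicle libraries spanned MinE07 and reached all but the highest C36 library. The change from C36 was -0.13 (95% interval -0.27 to 0.02, limma adjusted p = 0.525). Groups without overlap made up 22.6% of all genes in this comparison. HBEGF ranged from 1.23 to 1.44 FPKM under MinE07, 1.40 to 1.84 under C36 and 1.07 to 1.43 under vehicle. Its change from C36 was -0.22 (95% interval -0.43 to 0.003, limma adjusted p = 0.464). From vehicle, MinE07 differed by 0.08 (95% interval -0.14 to 0.30, limma adjusted p = 0.749). C36 differed from vehicle by 0.30 (0.08 to 0.52, limma adjusted p = 0.103).

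BTC in A549 held 2.50, 2.47 and 2.41 FPKM under MinE07, 2.63, 2.54 and 2.97 under C36, and 2.17, 1.99 and 1.85 under vehicle. Here both aptamers were above every vehicle library, and C36 was above MinE07. Of all genes, 29.7% did not overlap between C36 and vehicle and 18.4% between MinE07 and vehicle. BTC was the 1 member called between C36 and vehicle, at 0.36 (SE 0.066, limma adjusted p = 0.0172), where 6% of all genes were called and 3.62% were called higher. Dropping replicate 3 of C36 (adjusted p = 0.0736) or of vehicle (0.0617) ended that call, as did the replicate number as a block (0.0529) and no filter on low values (0.0851). EREG and HBEGF were not called between C36 and vehicle but had an unadjusted p under 0.05. Without vehicle replicate 1, which holds the highest vehicle values of AREG and EREG, those members were also called against C36, AREG at 0.23 (adjusted p = 0.0289) and EREG at 0.24 (0.0161). The 4 blood markers, of which CD68 alone reached 1 FPKM and CD3E was listed at 0, summed to 92.6 to 96.6 FPKM under C36, 66.3 to 80.7 under vehicle and 71.8 to 85.3 under MinE07, and their part in the BTC difference was not tested. MinE07 against vehicle called 0 of the 4 in limma, where 0.216% of all genes were called, and 1 of them, BTC, had an unadjusted p under 0.05, with a change of 0.24 (95% interval 0.10 to 0.39, limma adjusted p = 0.153). TGFA, between 0.862 and 1.10 FPKM, and EGF, between 0.0519 and 0.0873 FPKM, were under the filter.

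Whether the change itself differed between lines was tested with interaction terms over all 36 libraries, for MinE07 against C36. For AREG the H3255 change was -1.29 beyond that in A549 (limma adjusted p = 1.83e-11) and -0.86 beyond that in H1975 (5.41e-08), and the H1975 change was -0.43 beyond that in A549 (0.00192). For EREG the H3255 change was -1.19 beyond A549 (limma adjusted p = 6.4e-12) and -1.04 beyond H1975 (9.29e-11). The EREG change in H1975 was not shown to differ from that in A549 (-0.15, 95% interval -0.31 to 0.01, limma adjusted p = 0.239). Nor was the HBEGF change in H3255 shown to differ from that in A549 (-0.26, 95% interval -0.52 to -0.004, limma adjusted p = 0.134). The same held for HBEGF in H1975 against A549 (-0.10, 95% interval -0.36 to 0.16, limma adjusted p = 0.672). So 2 of the 5 members tested differed between H3255 and A549, where 25.2% of all genes did, 1 between H1975 and A549 (12.6%), and 2 between H3255 and H1975 (15.2%). Between H820 and A549 limma called 0 of 5, where 0.323% of all genes were called, and none of the 5 had an unadjusted p under 0.05. Leaving out the pair of H820 MinE07 libraries also called 0. No interaction term was fitted for the change from vehicle. For HBEGF that change was -0.65 in H3255, -0.30 in H1975 and 0.08 in A549, and its difference between lines was not tested. In A549, HBEGF under C36 lay 0.30 above vehicle (limma adjusted p = 0.103).

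The mean change of H3255 and H1975, the lines labelled with L858R alone or with T790M, was set against the mean change of H820 and A549. H820 is labelled EGFR mutant too, so this grouping does not divide mutant from wild type. It does follow the share of all genes called between MinE07 and C36, 36.7% and 19.9% in the first pair and 0.0364% and 0% in the second. The contrast uses the same libraries and is not independent of those shares. The p-values measure the spread between libraries and not between lines. Within the first pair, H3255 differed from H1975 by -0.86 for AREG and -1.04 for EREG. The mean change of the first pair was lower by 0.80 for AREG (SE 0.065, limma adjusted p = 4.5e-10) and by 0.70 for EREG (SE 0.056, 4.61e-10). HBEGF differed by -0.27 (SE 0.090, limma adjusted p = 0.0268), a call lost without replicate 2 of C36 in A549 (0.0595), of MinE07 in A549 (0.0503), of MinE07 in H3255 (0.059) or of C36 in H820 (0.0511), with no filter (0.077), and without both H820 MinE07 libraries that list mitochondrial genes at 0 (0.0566). Without that pair AREG was at -0.79 (limma adjusted p = 2.95e-08) and EREG at -0.69 (2.58e-08). Of the 5 members tested 3 were called, all lower, where 14.3% of genes were called lower and 24.5% in either direction. TGFA differed by -0.12 (95% interval -0.24 to -0.006, limma adjusted p = 0.119) and BTC by 0.01 (95% interval -0.12 to 0.14, limma adjusted p = 0.953). HBEGF and TGFA were not shown to differ between H3255 and H1975, with -0.16 (95% interval -0.42 to 0.10, limma adjusted p = 0.456) and 0.10 (95% interval -0.07 to 0.26, limma adjusted p = 0.49).

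Of the 5 other ERBB family ligands (EPGN and the neuregulins NRG1 to NRG4), 1 was tested in each of H3255, H1975 and H820 and 2 in A549. EPGN, epigen, is a further EGFR ligand whose gene lies 49.8 kb from EREG in the same cluster. In H3255 it held 1.75, 2.04 and 1.90 FPKM under MinE07, 3.69, 3.39 and 3.92 under C36, and 3.10, 3.03 and 4.15 under vehicle. Its MinE07 libraries were all below its controls, with a change of -0.80 from C36 (SE 0.10, limma adjusted p = 0.000239) and -0.70 from vehicle (0.000491). NRG1, a ligand of ERBB3 and ERBB4, fell in H1975 from 8.04, 7.91 and 8.39 FPKM under C36 to 6.12, 6.29 and 5.94 under MinE07, a change of -0.38 (SE 0.038, limma adjusted p = 0.000232).

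Among the ERBB receptors of H3255, no change was as large as those of AREG, EREG and HBEGF. EGFR transcript in H3255 was 341.3 ± 5.14 FPKM under MinE07 and 422.9 ± 11.6 under C36 (SD, n = 3), a change of -0.31 (limma adjusted p = 3.29e-05). ERBB2 and ERBB3, the partners of EGFR in heterodimers, rose there by 0.23 (limma adjusted p = 0.000222) and 0.20 (0.000483). In H1975 ERBB3 rose by 0.24 (limma adjusted p = 0.00152) and EGFR was not called at -0.11 (adjusted p = 0.138). In H820 and A549 none of the 3 receptors tested was called against C36, where 0.0364% and 0% of all genes were. EGFR in these lines was at -0.07 (limma adjusted p = 0.56) and -0.02 (adjusted p = 0.908). Against vehicle in A549, ERBB3 was called higher under MinE07, where 0.216% of all genes were called, and under C36 (6%). It held 9.23, 8.23 and 8.29 FPKM under MinE07, 8.84, 8.81 and 8.61 under C36, and 6.59, 6.50 and 6.89 under vehicle. ERBB4 averaged 1.08 FPKM under C36 in H3255 and was not called there (0.14, limma adjusted p = 0.108), and in the other lines it was under the filter.

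Of 12 genes for ligand shedding and trafficking, 7 were tested in H3255, where 1 rose and 2 fell, with a median change of -0.06 beside -0.009 over all genes tested. That count is near the background of 36.7% called in this line. ADAM17, the main sheddase of AREG, EREG, TGFA and HBEGF, fell by 0.11 (limma adjusted p = 0.0303). ADAM8, a related metalloprotease, fell by 0.45 in both L858R-bearing lines, with limma adjusted p = 0.000408 in H3255 and 0.000478 in H1975. RHBDF1, which carries ADAM17 to the cell surface, rose by 0.17 in H3255 (limma adjusted p = 0.0462). In H1975, 8 were tested, ADAM8 fell and the rhomboid protease RHBDL2 rose by 0.41 (limma adjusted p = 0.00749), with a median of 0.07 and a background of 19.9% called. RHBDL2 was near the filter, at a mean of 1.48 FPKM under MinE07 and 0.994 under C36. None of 10 in H820 and none of 7 in A549 was called, where 0.0364% and 0% of all genes were.

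Of the 16 genes of MAPK output other than the ligands, 15 were called lower in H3255, where 20% of all genes were, and SPRY2, a feedback inhibitor, was called higher by 0.08 (limma adjusted p = 0.032), with a median of -0.59. EGR1, an immediate early transcription factor, fell by 0.92 (limma adjusted p = 1.97e-06), and DUSP5, a phosphatase of ERK, fell by 0.90 (2.83e-06). DUSP5 averaged 0.680 FPKM under MinE07, below the filter of 1 FPKM set on the mean of the line, and 1.70 under C36. Its MinE07 mean was 0.400 of the C36 mean, a fall that the fitted change understates because 0.5 FPKM is added. In H1975, 13 of 15 tested were called lower and 0 higher, where 11.1% of all genes were lower, with a median of -0.38. The inhibitor SPRY4 fell by 0.67 there (limma adjusted p = 0.000122) and EGR1 by 0.61 (adjusted p = 0.000111). In H820, 1 of 13 was called, EGR1, which fell by 0.78 (limma adjusted p = 0.00165, and 0.0122 without both MinE07 libraries that list mitochondrial genes at 0), and the list's median was -0.12. Without that pair EGR1 remained the 1 gene called in this list, and none was called in the lists of other ligands, receptors, shedding and AP-1 genes. In A549, 0 of 15 were called, with a median of -0.10. Of all genes tested, 0.0364% were called in H820 and 0% in A549. The changes of this list from C36 were below 0 for 13 of 13 genes in H820 and 14 of 15 in A549, where the medians of all genes were 0.007 and 0.002. From vehicle they were below 0 for 10 of 13 in H820 (median -0.12) and 7 of 15 in A549 (median 0.002). Between C36 and vehicle in A549, 12 of 15 were above 0 and 3 were called higher, where 3.62% of all genes were. The ligands' own medians from C36, over the members tested, were -0.29 in H3255 (6 members), -0.28 in H1975 (5 members), -0.04 in H820 (5 members) and -0.12 in A549 (4 members). In A549 the ligand median was 0.075 for MinE07 against vehicle and 0.23 for C36 against vehicle.

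**Figure D4:**
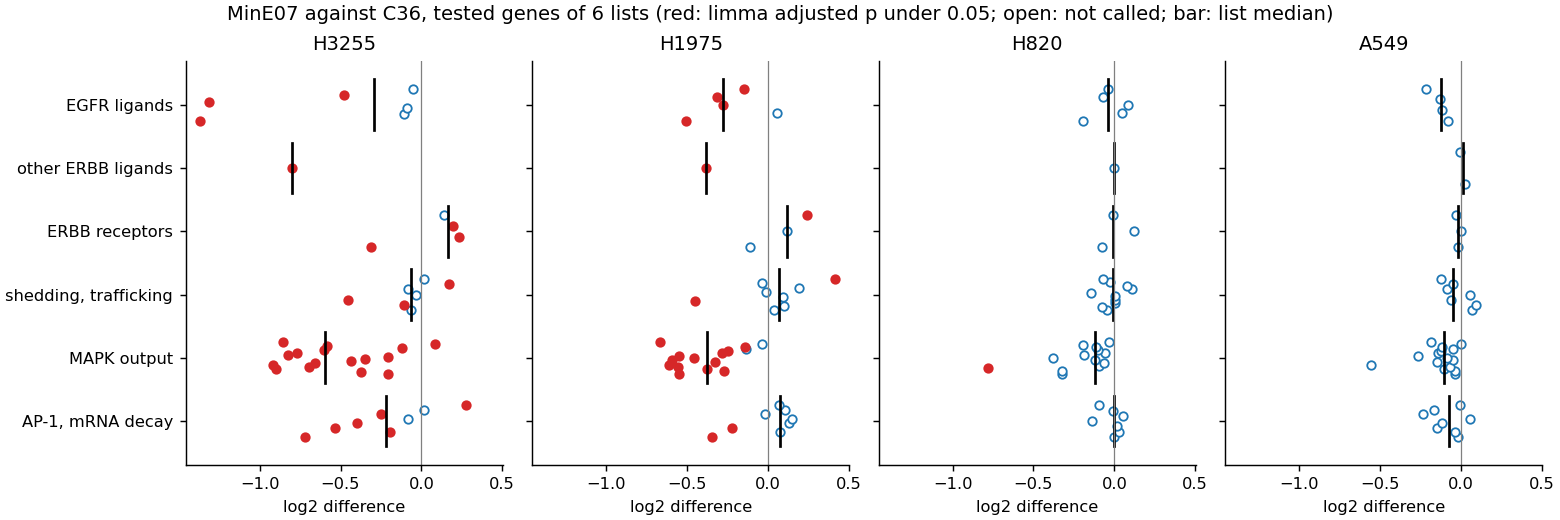
Change MinE07 against C36 on the log2(FPKM + 0.5) scale for every tested gene of the EGFR ligands and of the other fixed lists, by line; filled points passed limma's adjusted p of 0.05 and bars are list medians. In H3255 and H1975 the MAPK output list has the lowest bar among lists with more than 1 tested gene, at -0.59 and -0.38. The 1 tested gene of the other ERBB ligands lies at -0.80 and -0.38. The bars of the receptors and shedding genes lie between -0.06 and 0.17.

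The 9 genes for AP-1 subunits, the transcription factors that bind TGANTCA, and for ZFP36 family factors, which bind AU-rich elements and promote mRNA decay, were counted in the same way. In H3255, 8 were tested, 5 fell and 1 rose, with a median of -0.22, where 20% of all genes were called lower and 36.7% in either direction. FOS fell by 0.72 (limma adjusted p = 1.07e-06), JUN fell by 0.53 (adjusted p = 3.69e-05) and ZFP36L2 rose by 0.27 (adjusted p = 0.00321). In H1975, 2 of 8 were called, FOS, which fell by 0.34 (limma adjusted p = 0.0436), and JUN, which fell by 0.22 (adjusted p = 0.012), with a median of 0.07, a share near the 19.9% of all genes called. None of 7 in H820 and none of 8 in A549 was called, where 0.0364% and 0% of all genes were.

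Likeness between genes was measured as Pearson's r of log2(FPKM + 0.5), given as a description. After each line's mean was taken out, AREG and EREG were the nearest of 14571 genes to each other over the 36 libraries, with r = 0.974. The next were ITGA2, an integrin subunit (0.959 with AREG and 0.963 with EREG), and TFPI2, a protease inhibitor (0.952 and 0.954). HBEGF came to 0.802 with AREG and 0.719 with EREG, and its own nearest gene was DNAJB11 (0.837). TGFA (0.204) and BTC (0.244) were far less like AREG on this measure. The nearest genes were EMP1 for TGFA (0.664) and GBP3, TNFAIP3 and CXCL11 for BTC (0.831, 0.791 and 0.783). These points share libraries and, within a line, treatment groups. Treatment differences are left in, and for AREG and EREG those of H3255 were the largest, at -1.37 and -1.31 from C36. How far they set r was not tested.

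Over the 12 group means with line differences left in, AREG and EREG were not alike (r = 0.133), and EREG stood at rank 5694 for AREG. On that measure the nearest genes were MAIP1, SBNO1 and CDK1 for AREG (0.987 to 0.985), HSPD1 for EREG (0.994), SAMD1 for TGFA (0.998), SLC35F2 for HBEGF (0.985) and ARHGAP35 for BTC (0.997). The 12 means come from 4 lines and share each line's background.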

How the data were processed

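Poly-A RNA was sequenced in 36 libraries as stranded, paired reads of 100 bases, per the labels' protocols. The authors deposited 1 file of FPKM per library, the unit given by the deposited file names. The submitters' processing notes name HISAT2, Cuffdiff, GRCh38.p12 and hg38, and the annotation is not given in the sources used here. Cuffdiff can share fragments among overlapping or similar transcripts, which can move values of near-identical genes. Of 68271 entries per file, 1874 had no gene name and 31 shared 15 repeated names, and these were left out. The files hold no counts, so no count test was used.

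Changes were fitted with limma 3.58.1 in R 4.3.3 (trend and robust moderation) on log2(FPKM + 0.5), over genes with a mean of at least 1 FPKM in the libraries of the fit. Each line was fitted on its 9 libraries, and differences between lines on all 36. Tests were two-sided, with Benjamini-Hochberg adjustment over all genes tested and a threshold of 0.05, and intervals are 95% and unadjusted. The fit was tested on simulated data. Every member was named, with up to 2 called genes per line and direction from each other list. The members and lists were chosen with earlier results of these data known. Alternatives were other pseudocounts, filters, scaling, moderation, 1 fit of all libraries, a replicate block, entries for further copies of a gene left out, and each library left out. Leaving out both H820 MinE07 libraries with mitochondrial genes at 0 was added after seeing the data. Same-numbered libraries are not said to share a batch.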

Additional observations from a re-analysis of the deposited data

Results flagged for a closer look

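The following members had a change under MinE07, relative to C36, that differed between lines by limma's interaction term over all 36 libraries, with p-values adjusted over 14572 genes. AREG changed by -1.29 more in H3255 than in A549 (limma adjusted p = 1.83e-11), by -0.86 more than in H1975 (5.41e-08), and by -0.43 more in H1975 than in A549 (0.00192). EREG changed by -1.19 more in H3255 than in A549 (limma adjusted p = 6.4e-12) and by -1.04 more than in H1975 (9.29e-11). Between the mean change of H3255 and H1975 and that of H820 and A549, the difference was -0.8 for AREG (limma adjusted p = 4.5e-10), -0.7 for EREG (4.61e-10) and -0.27 for HBEGF (0.0268). These p-values measure the spread between libraries and not between lines. The line pairs also follow the share of all genes called between MinE07 and C36, 36.7% and 19.9% in the first and 0.0364% and 0% in the second. Line by line, HBEGF was not called for H3255 minus A549 (limma adjusted p = 0.134) or H1975 minus A549 (0.672). From vehicle, HBEGF changed by -0.65 in H3255, -0.30 in H1975 and 0.08 in A549, and these differences between lines were not tested. The HBEGF call was lost with no filter on low values (adjusted p = 0.077), without replicate 2 of A549 C36 (0.0595), A549 MinE07 (0.0503), H3255 MinE07 (0.059) or H820 C36 (0.0511), and without both H820 MinE07 libraries that list mitochondrial genes at 0 (0.0566). For AREG and EREG the 3 MinE07 libraries lay below all 3 C36 libraries in H3255, H1975 and A549. Groups without overlap made up 49.9%, 40.3% and 22.6% of all genes tested in those lines. The MinE07 libraries also lay below all vehicle libraries in H3255 and H1975, where 49.1% and 38.4% of all genes did not overlap. In A549 they overlapped vehicle, with changes of 0.07 for AREG and 0.04 for EREG. The genotype, background and, for A549, medium of the lines cannot be told apart.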

How the results depend on the processing

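The falls of AREG, EREG and HBEGF in H3255 and H1975, against C36 and against vehicle, kept their direction and call in every alternative that gave a value. AREG in H3255 ran between -1.46 and -1.26 against C36 and EREG between -1.86 and -0.97, the ends set by pseudocounts of 0.1 and 1. HBEGF in H3255 gave no value without vehicle replicate 2 or 3, because its mean then fell under 1 FPKM.

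A mean of at least 5 FPKM left 1 member called in H3255 against C36 and 1 against vehicle, and 2 in each of the 6 contrasts of vehicle levels, since fewer members passed it. The same filter gave 1 call in H820 for C36 against vehicle (HBEGF, adjusted p = 0.0428) and 0 in A549. The call of 1 member in H820 against vehicle became 0 with no filter, with no trend or robust moderation, in 1 fit of all 36 libraries and without both libraries that list mitochondrial genes at 0, and ran from 0 to 1 as each library was left out. For C36 against vehicle in A549 the count was 0 with no filter (BTC, adjusted p = 0.0851), 3 in 1 fit of all 36 libraries, and 0 to 3 as each library was left out. That fit called 1 member for MinE07 against vehicle in A549 (BTC, adjusted p = 0.021). HBEGF lost its call between the mean changes of the line pairs with no filter (adjusted p = 0.077) and without both H820 libraries that list mitochondrial genes at 0 (-0.279, adjusted p = 0.0566).

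With the replicate number as a block, the count for MinE07 against vehicle in H820 (EREG, adjusted p = 0.053) and that for C36 against vehicle in A549 (BTC, adjusted p = 0.0529) became 0, and no other call of a member was lost. Deviations of same-numbered libraries correlated between -0.163 and 0.246, and in 0 of 12 pairs of groups did every number exceed 0.1, so the numbers were not taken to pair the samples.

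The reversals were all among changes that were not called. Rescaling gave -0.03 for TGFA in H3255 against vehicle, -0.021 for the BTC difference between H3255 and A549, and -0.001 for BTC between the line pairs. A pseudocount of 1 gave -0.005 and -0.003 for the same BTC differences. EGF in H820 against vehicle came to 0.014 without both libraries with mitochondrial genes at 0. Leaving out single libraries gave these ranges. In H3255 they were -0.028 to 0.046 for TGFA under MinE07, and for C36 -0.07 to 0.043 (AREG) and 0.0 to 0.088 (BTC), all against vehicle. In H1975 they were -0.025 to 0.113 (BTC, against C36), -0.097 to 0.04 (BTC, against vehicle) and -0.014 to 0.044 (HBEGF, C36 against vehicle). In H820 they were -0.077 to 0.034 (HBEGF, against C36) and -0.083 to 0.004 (BTC, against vehicle). In A549 they were -0.017 to 0.149 (AREG) and -0.033 to 0.115 (EREG), both against vehicle. Between H3255 and A549 they were -0.067 to 0.018 (TGFA) and -0.052 to 0.055 (BTC), and -0.032 to 0.173 for HBEGF under vehicle. BTC between the line pairs ran from -0.032 to 0.036. The causes were not tested. Without the filter the change of EGF under MinE07, relative to C36, differed between H3255 and H1975 by -0.21 (adjusted p = 0.0465). Read depth is unknown, so counting error at levels under 1 FPKM could not be given.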
